A study of Mus musculus with 21 samples.

Results

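The step from the 2-cell to the 4-cell mouse embryo was described with 6 of the 21 samples of a series that profiled gametes and preimplantation embryos by long-read and short-read sequencing of amplified cDNA. The samples were chosen by their labelled stage and comprise 2 short-read libraries and 1 long-read pool at each of the 2-cell and 4-cell stages. Each short-read library holds pooled embryos of 1 batch, and the long-read pool of a stage mixes the cDNA of both batches. All embryos came from C57/BL6J females aged 3 to 5 weeks that had been superovulated with PMSG and hCG and mated with DBA/2 males (DBA/2J in the strain label and DBA/2N in the protocol), and no other treatment or allele is labelled. Fertilised embryos were flushed from the oviduct and cultured in KSOM, and were collected 46 to 48 h after hCG at the 2-cell stage and 54 to 58 h after hCG at the 4-cell stage. Because the 2 stages differ in hours of culture as well as in cell division, these cannot be told apart. Each library is a pool of whole embryos, so fewer cells of a type and less RNA per cell cannot be told apart either. Values are TPM, the length-scaled level of a transcript as a share of the library's total, over 22612 transcripts merged from the long reads of all stages, and for gene TPM all transcripts were summed that were assigned to a GENCODE vM21 gene.

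In the mouse, the major wave of zygotic genome activation takes place in the late 2-cell embryo, when the embryo's own nuclei take over from mRNAs stored in the oocyte. A short-lived group of genes, many of them in repeated families such as Zscan4, Usp17l and Tdpoz, is known for a burst of transcription at the 2-cell stage. Stored maternal mRNAs are deadenylated and degraded around the same time, and the embryo then builds up ribosomes, mitochondrial respiration and the machinery of gene expression before the first lineages part in the morula.

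The 2-cell libraries stood apart from all other embryo libraries in how much the replicates differed. The median SD of a gene between replicates was 1.03 on the log2(TPM + 1) scale at the 2-cell stage, against 0.204 at the 4-cell stage and 0.278 to 0.643 at the other 4 stages tested. Pearson's r across 13465 genes was 0.730 between the 2-cell libraries and 0.968 between the 4-cell libraries, while each 2-cell library had an r of 0.726 to 0.758 with the 4-cell libraries. The number of merged transcripts listed at 0 was 3557 and 1334 in 2-cell replicates 1 and 2, and 2546 and 2470 in the 4-cell replicates. By read totals that are not used here, 2-cell replicate 2 was also the most deeply sequenced of the 4 libraries, and the part of depth in these differences was not tested. All stage differences below rest on 2 libraries against 2, for which the smallest p of an exact permutation test is 0.333. Genes were therefore tested with limma across 12 libraries from oocyte to blastocyst, weighted by the spread of each stage. The study speaks of 2 batches of samples a stage, and no source names separate matings or days for them, so p-values measure only the spread between these samples, which may be technical.

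Of 13465 genes tested, 10000 of them annotated, limma called 1 gene higher and 1 gene lower at the 4-cell stage at an adjusted p under 0.05, which is 0.00743% of the genes in each direction. At an unadjusted p under 0.05 the same fit had 1857 genes (13.8%). With 1 spread shared by all stages, limma called 143 genes higher (1.06%) and 213 lower (1.58%), and after quantile normalization 145 higher (1.08%) and 140 lower (1.04%). These 2 fits had 101 higher (0.75%) and 109 lower (0.81%) calls in common. The fit after quantile normalization also used weights by stage. Where a fit below is named as with weights, it is the main one, without quantile normalization. In 27.2% of all genes tested (3659 genes) both 4-cell libraries were above both 2-cell libraries, and in 23.3% (3139 genes) both were below, which makes 50.5% without overlap. These shares are the background for every count of members below, and the median change over all genes was -0.0018 on the log2 scale. Leaving out 2-cell replicate 1 moved that median to -0.40, and leaving out replicate 2 moved it to 0.52.

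The called gene with higher TPM was Bhmt on chr13, which encodes betaine-homocysteine S-methyltransferase, an enzyme that remethylates homocysteine to methionine. Bhmt stood at 5.40 and 3.57 TPM in 2-cell embryos, against 459.9 and 464 TPM in 4-cell embryos. It was close to absent in 1-cell embryos, at 0.289 and 1.02 TPM, and higher still in 8-cell embryos, at 1643 and 1937 TPM. Its log2 change was 6.42 (SE 0.87, n = 2 libraries a stage, adjusted p = 0.0237 by limma). None of its transcripts was in the 2-cell long-read pool, and 1 was in the 4-cell pool. Over 11 alternative settings the change was 6.18 to 7.10 and the adjusted p by limma 0.00486 to 0.563, with 6 of the 11 under 0.05.

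The called gene with lower TPM was an unannotated single-exon locus, XLOC_000849, of 287 bases at chr1:125656888-125657174 on the minus strand (mm10). The 2-cell libraries held 372 and 73.8 TPM of it and both 4-cell libraries listed it at 0, after 117 and 134 TPM in the 1-cell libraries. Its log2 change of -7.38 (SE 0.98, adjusted p = 0.0237 by limma) depends on the pseudocount, since the 4-cell stage is listed at 0. The locus was present in the 2-cell long-read pool and not in the 4-cell pool. Over the 11 alternatives the adjusted p by limma ran from 0.00887 to 0.509, with 7 under 0.05.

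The fixed rule named up to 12 called genes in each direction, and only these 2 genes were called. The genes with the largest changes among those called both with 1 shared spread and after quantile normalization are therefore given as values, and were chosen after their values were seen. None of them was called with weights by stage when quantile normalization was left out. In simulated data the fit with 1 shared spread made more false calls than its threshold allows. Tdgf1, which encodes the Nodal co-receptor Cripto, had 0.642 and 1.95 TPM at 2-cell and 91.0 and 86.4 TPM at 4-cell. The lens crystallin gene Crygs had 0.284 and 0.683 TPM at 2-cell and 57.7 and 58.6 TPM at 4-cell. Gja1, which encodes the gap junction protein connexin 43, had 2.31 and 12.5 TPM at 2-cell and 169 and 161 TPM at 4-cell. In these 3 genes both 4-cell libraries lay far above both 2-cell libraries and close to each other. Among metabolic and transport genes, Fbp2, a fructose-bisphosphatase of gluconeogenesis, had 0.345 and 3.98 TPM at 2-cell and 49.2 and 66.7 TPM at 4-cell. Nipal1, which encodes a magnesium transporter, had 6.90 and 28.2 TPM at 2-cell and 334 and 328 TPM at 4-cell. Sycn, the gene of the secretory granule protein syncollin, had 1.31 and 0.105 TPM at 2-cell and 40.8 and 40.2 TPM at 4-cell. The adjusted p by limma with weights was 0.111 for Crygs, 0.187 for Gja1 and 0.168 for Fbp2. The remaining names on this side were Hspa8 and the ribosomal protein gene Rpl3, both described below with their groups, the processed copy Rpl3-ps1, whose reads can come from Rpl3, and the predicted genes Gm6139 and Gm8258.

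On the side of lower TPM the same choice held Zbed3, which encodes a zinc finger protein of the maternal subcortical complex. Zbed3 stood at 20079.9 and 1745 TPM in 2-cell embryos, against 78.0 and 44.9 TPM in 4-cell embryos, with a log2 change of -6.62 (SE 1.65, adjusted p = 0.173 by limma). The first 2-cell library was far above the second, and both were far above the 4-cell libraries. Fzd5, a Wnt receptor, had 225 and 45.4 TPM at 2-cell and 2.90 and 1.97 TPM at 4-cell. Gbx2, a homeobox transcription factor, had 59.7 and 28.2 TPM at 2-cell and 0.445 and 0.623 TPM at 4-cell. Lbx1, another homeobox factor, had 98.8 and 58.9 TPM at 2-cell and 3.48 and 1.81 TPM at 4-cell. These 3 are genes of signalling and patterning, and each was at most a few TPM at the 4-cell stage. The RNA-binding protein gene Rbm38 had 1517 and 286 TPM at 2-cell and 24.7 and 20.3 TPM at 4-cell. The poly(A) polymerase gene Tent5b had 116 and 33.9 TPM at 2-cell and 1.26 and 1.22 TPM at 4-cell. The microfibril protein gene Mfap2 had 33.7 and 124 TPM at 2-cell and 1.10 and 0.939 TPM at 4-cell. Smagp, Ccdc69, Cdc34b, Cenpv and A930017M01Rik completed the 12, and in each of them the 2 stages did not overlap.

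**Figure D1:**
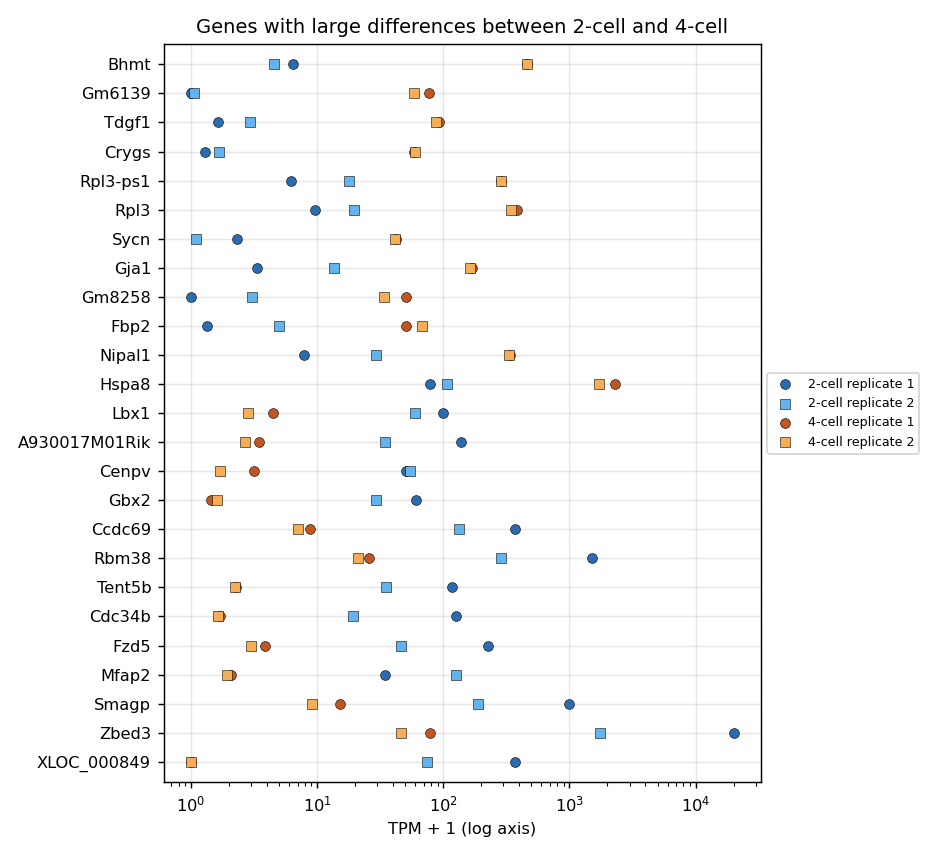
TPM + 1 (log axis) of Bhmt, of XLOC_000849 and of the genes with the largest differences among those called both without weights and after quantile normalization, with 1 point for each of the 2 2-cell libraries (blue) and the 2 4-cell libraries (orange). The 4-cell points of a gene lie close together, while the 2-cell points are up to about an order of magnitude apart, as for Zbed3 at 20079.9 and 1745 TPM.

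Genes were then grouped by function into 20 lists, 4 of them markers of other cell types, and each list is given by its counts and its median beside the values over all genes. No member of a list was called among 853 genes by limma with weights by stage and without quantile normalization. At an unadjusted p under 0.05 that fit had 193 of the 853 (22.6%), against 13.8% of all genes tested. The fit with 1 shared spread called 23 of the 853, beside 356 of all 13465 genes. The fit after quantile normalization called 29 of the 853, beside 285 of all 13465. The directions below are those of TPM, a share in which a higher level of some genes lowers that of others.

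Cytosolic ribosomal proteins, the structural subunits of the 40S and 60S particles, had the highest median change of all lists. In 78 of 82 genes both 4-cell libraries were above both 2-cell libraries, in none were both below, and the median log2 change was 2.43, with 2.33 when 2-cell replicate 1 was left out and 2.62 when replicate 2 was. Their summed TPM was 17097 and 17522 at the 2-cell stage and 79077 and 80452 at the 4-cell stage, 4.61 times as much on average. At the 8-cell stage the sum reached 139860.0 and 126371 TPM. The sum was thus nearly the same in both libraries of a stage, also in the 2-cell libraries that differed in so many other genes. Rpl3 had 8.65 and 18.6 TPM at 2-cell and 382 and 344 TPM at 4-cell and a log2 change of 4.72 (SE 0.95, adjusted p = 0.111 by limma with weights). Rpl5, which carries 5S rRNA into the large subunit, had 57.3 and 97.1 TPM at 2-cell and 1058 and 1085 TPM at 4-cell. Rps18, of the small subunit, had 57.4 and 153 TPM at 2-cell and 1093 and 1158 TPM at 4-cell. In each of them the lower 4-cell library was at least several times the higher 2-cell library. Rpl7a had 17.5 and 60.4 TPM at 2-cell and 446 and 501 TPM at 4-cell. Besides these, Rpl27, Rpl36a, Rps3 and Rps4x were called in at least 1 of the other 2 fits. Rps10 was the sole member with a change below 0, with 1581 and 289.9 TPM at 2-cell and 601 and 614 TPM at 4-cell and a change of -0.16 (SE 1.05), which became 1.07 without 2-cell replicate 1. The longest transcript of the ribosomal protein genes had a median of 789.5 bases, and all genes of 770 to 1333 bases had a median change of -0.07. The stages also overlapped in Rpl10 and Rpl13. Many processed copies of these genes share their sequence, so the TPM of a single member is uncertain where reads were split among copies.

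Ribosomal protein mRNAs are known to start with a C followed by a run of pyrimidines, the 5′ terminal oligopyrimidine element through which their translation responds to growth signals. Promoter sequences of 7490 of the 10000 annotated genes tested were matched by symbol in the RefSeq table (GRCm38.p6), at the start nearest to the 5′ end of the gene's most abundant transcript. The letters CTTTC or CTTCC, searched on the sense strand only between 20 bases before and 20 bases after the start, were found in 30 of the 61 ribosomal protein promoters matched (49.2%). They were in 15.6% of the promoters of all matched genes tested and in 13.7% of all 32851 promoters in the table. Among proteasome subunits 34.6% held them, among ribosome biogenesis factors 28.9%, among oxidative phosphorylation subunits 25%, and none of 30 matched pluripotency and lineage regulators. The ribosomal protein genes with these letters had a median log2 change of 2.36 (n = 30) and those without 2.49 (n = 31). The 40 bases around the start are shown with each match in capitals, for 3 ribosomal protein genes with large changes that hold the letters. They are also shown for Rpl27, which does not hold them, and for Rps10, which does and whose TPM overlapped between the stages. The start used lay 111 bases from the 5′ end of the gene's most abundant transcript for Rpl7a and 91 for Rps10. It lay 9 bases from it for Rpl5, 4 for Rps18 and 17 for Rpl27.
Rpl5 (chr5:107900508-107900547, plus strand): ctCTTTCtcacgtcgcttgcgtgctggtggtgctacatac
Rpl7a (chr2:26910787-26910826, plus strand): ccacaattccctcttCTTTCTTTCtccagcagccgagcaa
Rps18 (chr17:33955646-33955685, minus strand): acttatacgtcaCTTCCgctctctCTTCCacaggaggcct
Rpl27 (chr11:101442225-101442264, plus strand): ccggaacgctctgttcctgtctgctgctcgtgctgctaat
Rps10 (chr17:27635225-27635264, minus strand): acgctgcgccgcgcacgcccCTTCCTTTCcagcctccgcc

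Ribosome biogenesis factors, which process rRNA and assemble the subunits, were higher in both 4-cell libraries in 83 of 106 genes and lower in both in none, with a median log2 change of 1.35. Tsr2, a chaperone of a small-subunit protein, had 22.7 and 12.1 TPM at 2-cell and 256 and 229 TPM at 4-cell (log2 change 3.79, SE 0.80, adjusted p = 0.123 by limma with weights), and it was the 1 member that both other fits called. The nucleolar GTPase gene Gnl3l had 9.35 and 71.9 TPM at 2-cell and 303 and 341 TPM at 4-cell. Npm1, the abundant nucleolar protein nucleophosmin, had 65.4 and 259 TPM at 2-cell and 1521 and 1220.5 TPM at 4-cell. In each of these genes the 4-cell libraries lay several-fold above the higher of the 2-cell libraries.

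Of 40 translation initiation factors, 29 were higher in both 4-cell libraries and 2 lower in both, with a median of 1.37. Eif2b3, a subunit of the exchange factor of eIF2, had 27.2 and 12.8 TPM at 2-cell and 262 and 185 TPM at 4-cell. Eif2s2, the beta subunit of eIF2, had 33.7 and 81.8 TPM at 2-cell and 521 and 480.4 TPM at 4-cell. Eif3e, an eIF3 subunit, had 13.8 and 38.6 TPM at 2-cell and 229 and 186 TPM at 4-cell. The stages were far apart in all 3. The oocyte form of the cap-binding protein, Eif4e1b, went the other way, at 35.0 and 21.3 TPM at 2-cell and 2.92 and 1.92 TPM at 4-cell (log2 change -3.07, SE 0.92, adjusted p = 0.228 by limma with weights and 0.0396 with 1 shared spread).

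Subunits of oxidative phosphorylation, the nuclear-encoded parts of respiratory complexes and ATP synthase, were higher in both 4-cell libraries in 60 of 77 genes and lower in both in none. The median log2 change was 1.60, and the summed TPM was 13373 and 11544 at the 2-cell stage and 26079 and 25303 at the 4-cell stage. Ndufa3, a complex I subunit, had 10.3 and 10.1 TPM at 2-cell and 181 and 199 TPM at 4-cell, and its log2 change of 4.09 (SE 0.95) had an adjusted p of 0.144 with weights and 0.0238 with 1 shared spread, both by limma. Ndufs5, also of complex I, had 36.5 and 29.5 TPM at 2-cell and 277 and 308 TPM at 4-cell. Uqcrb, a complex III subunit, had 9.11 and 78.2 TPM at 2-cell and 429 and 320.2 TPM at 4-cell, with a wide gap between the 2-cell libraries. The 33 genes of glycolysis and pyruvate use had 7 higher in both 4-cell libraries and 10 lower in both, where all genes tested had 27.2% and 23.3%. Their median was -0.28. The sign of that median turned with 1 library, with -0.78 without 2-cell replicate 1 and 0.64 without replicate 2, and it was -0.47 after quantile normalization. Pfkp, a phosphofructokinase, had 7.58 and 9.10 TPM at 2-cell and 0.883 and 1.13 TPM at 4-cell. Pdk1 and Pdk2 encode kinases that switch pyruvate dehydrogenase off, and both were lower in the 4-cell libraries. Pdk1 had 57.9 and 77.5 TPM at 2-cell and 13.9 and 13.9 TPM at 4-cell. Pdk2 had 5.35 and 8.89 TPM at 2-cell and 0.935 and 0.515 TPM at 4-cell.

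Protein turnover and folding genes were mostly higher. Of 32 proteasome subunits 28 were higher in both 4-cell libraries and none lower in both, with a median of 1.96 and a summed TPM of 4293 and 3350.1 at the 2-cell stage against 11985 and 11772 at the 4-cell stage. Psma2, of the core particle, had 15.4 and 132 TPM at 2-cell and 406 and 397 TPM at 4-cell. Psma6, also of the core particle, had 60.0 and 72.8 TPM at 2-cell and 550.3 and 479 TPM at 4-cell. Psmd14, the deubiquitinating subunit of the cap, had 19.4 and 149 TPM at 2-cell and 415 and 404 TPM at 4-cell. Of the 8 subunits of the CCT chaperonin, which folds actin and tubulin, 6 were higher in both, with a median of 1.79. Cct5 had 31.5 and 52.8 TPM at 2-cell and 244 and 249 TPM at 4-cell. Cct6a had 49.8 and 54.0 TPM at 2-cell and 251 and 182 TPM at 4-cell. Cct2 had 18.7 and 56.1 TPM at 2-cell and 137 and 126 TPM at 4-cell.

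Genes of the stress list differed in direction. The constitutive Hsc70 gene, Hspa8, had 76.8 and 106 TPM at 2-cell and 2274 and 1724 TPM at 4-cell (log2 change 4.44, SE 1.08, adjusted p = 0.168 by limma with weights). The constitutive Hsp90 gene, Hsp90ab1, had 80.2 and 143 TPM at 2-cell and 1082 and 1090.2 TPM at 4-cell. The next 2 genes were lower in both 4-cell libraries and highest in 2-cell replicate 1. The heat-inducible Hspa1a had 152 and 28.7 TPM at 2-cell and 5.84 and 5.42 TPM at 4-cell. Hspb1, a small heat shock protein, had 2869 and 298 TPM at 2-cell and 136 and 92.8 TPM at 4-cell. The immediate-early genes Jun and Egr1 and the damage-response gene Gadd45a were lower in both 4-cell libraries as well. Jun had 27.5 and 3.77 TPM at 2-cell and 0.352 and 0.0177 TPM at 4-cell. Egr1 had 10.0 and 4.76 TPM at 2-cell and 0.128 and 0.237 TPM at 4-cell. Gadd45a had 48.7 and 36.1 TPM at 2-cell and 5.64 and 4.48 TPM at 4-cell. The metallothionein gene Mt1 was on the higher side, with 581 and 1460.1 TPM at 2-cell and 3226 and 4138 TPM at 4-cell. Over the 31 genes of the list, 8 were higher in both 4-cell libraries, 12 were lower in both and the median was -0.67, with -1.21 without 2-cell replicate 1 and -0.09 without replicate 2. Hspb1 and Mt1 were chosen after their values were seen.

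**Figure D2:**
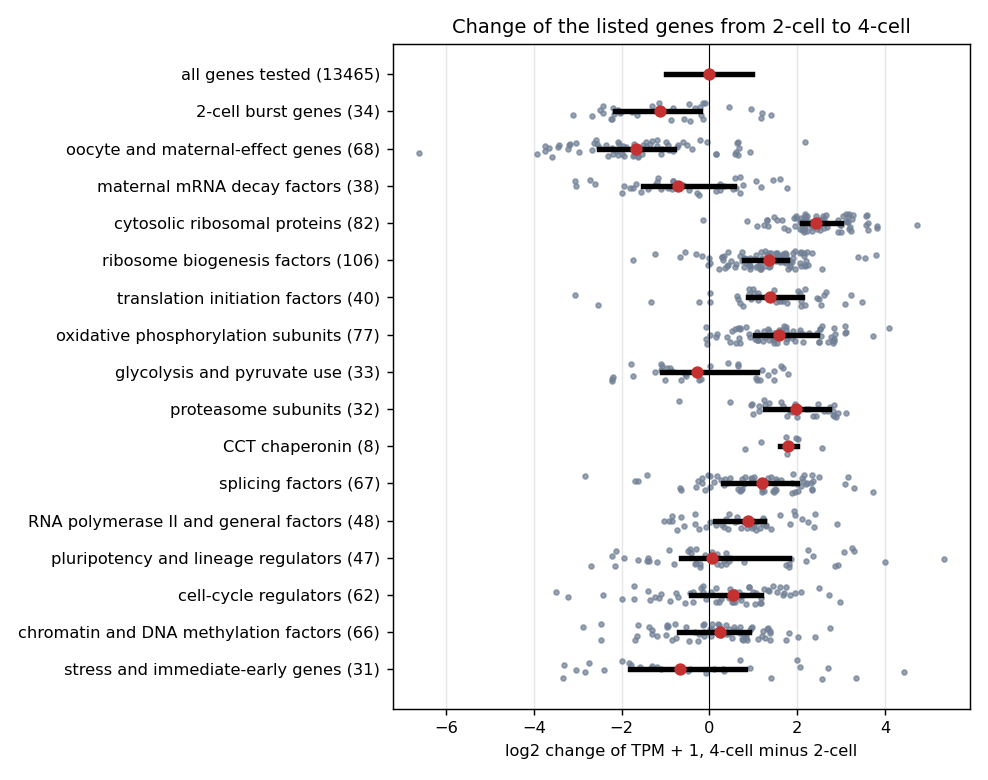
Log2 change of TPM + 1 from the 2-cell to the 4-cell stage, with 1 grey point a gene, the red point at the median and the black bar from the lower to the upper quartile of each list, and the number of genes tested in brackets. Ribosomal proteins lie highest with a median of 2.43, and oocyte and maternal-effect genes lowest with -1.68, around a median of -0.0018 over all genes.

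Splicing factors were higher in both 4-cell libraries in 44 of 67 genes and lower in both in 4, with a median of 1.21. Srsf3, a serine/arginine-rich splicing regulator, had 4.31 and 29.7 TPM at 2-cell and 189.9 and 146 TPM at 4-cell. It was called after quantile normalization (adjusted p = 0.0418 by limma), though not with weights alone (0.216). Srsf7, of the same family, had 17.2 and 110.4 TPM at 2-cell and 469 and 345 TPM at 4-cell. Snrpd3, an Sm protein of the snRNP core, had 17.9 and 72.4 TPM at 2-cell and 295 and 445 TPM at 4-cell. In all 3 both 4-cell libraries were several-fold above the higher 2-cell library. Hnrnpa1, an hnRNP chosen after its values were seen, had 60.1 and 309.7 TPM at 2-cell and 1163 and 1162 TPM at 4-cell. Ptbp2, the splicing repressor known from neurons and germ cells, was on the other side with 27.9 and 46.5 TPM at 2-cell and 4.20 and 4.23 TPM at 4-cell. Phf5a, a subunit of SF3b that the study followed up, had 57.04 and 226 TPM at 2-cell and 437 and 442 TPM at 4-cell (log2 change 1.94, SE 1.18, adjusted p = 0.477 by limma). Raly, an hnRNP also named there, had 66.9 and 19.5 TPM at 2-cell and 16.5 and 7.19 TPM at 4-cell (log2 change -1.64, SE 1.30, adjusted p = 0.583 by limma). Neither passed the test. Subunits of RNA polymerase II and general transcription factors were higher in both in 29 of 48 genes and lower in both in 2, with a median of 0.88. The polymerase subunit gene Polr2k had 60.6 and 201 TPM at 2-cell and 967 and 725 TPM at 4-cell. Gtf2h2, a TFIIH subunit, had 14.1 and 30.1 TPM at 2-cell and 119 and 109 TPM at 4-cell. Cdk7, the TFIIH kinase, had 16.4 and 75.7 TPM at 2-cell and 177 and 199.7 TPM at 4-cell.

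Oocyte and maternal-effect genes encode the zona pellucida, the subcortical complex and other stored products. Among the lists that are not markers of other cell types, they had the lowest median. Both 4-cell libraries were below both 2-cell libraries in 33 of 68 genes and above in 2, with a median of -1.68. Summed, they held 24474 and 29082 TPM in 2-cell embryos, against 9877 and 11594 TPM in 4-cell embryos. The sum in 2-cell replicate 1 was mostly Zbed3, and without that gene, a choice made after the values were seen, the sums were 4394 and 27337 TPM at 2-cell and 9799 and 11549 TPM at 4-cell. Replicate 1 was then below both 4-cell libraries, whose sums were mostly Dppa3. The list median depended on 2-cell replicate 2, with -3.07 when replicate 1 was left out and -0.23 when replicate 2 was. Tcl1, an Akt co-activator stored in oocytes, had 108 and 2609 TPM at 2-cell and 30.1 and 38.1 TPM at 4-cell. Its clustered relatives Tcl1b1 to Tcl1b5 had the same highest library and were lower in both 4-cell libraries. Tcl1b1 had 39.8 and 314 TPM at 2-cell and 7.81 and 8.21 TPM at 4-cell. Tcl1b5 had 9.003 and 74.4 TPM at 2-cell and 0.926 and 1.17 TPM at 4-cell. Reads of these near-identical genes can be split among them. After quantile normalization limma gave Tcl1b1 an adjusted p of 0.0292 and Tcl1b5 one of 0.0313, against 0.173 for both with weights. Bmp15, an oocyte growth factor, had 25.8 and 170.3 TPM at 2-cell and 7.17 and 5.92 TPM at 4-cell. Bcl2l10, an oocyte relative of Bcl2, had 84.0 and 252 TPM at 2-cell and 10.6 and 9.23 TPM at 4-cell. Omt2a, an oocyte transcript chosen after its values were seen, had 1096 and 7316 TPM at 2-cell and 276 and 426 TPM at 4-cell. In all of these the second 2-cell library was the highest of the 4.

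Factors of maternal mRNA decay and storage were split, with several high in the 2-cell libraries. Btg4, the adaptor that brings the CCR4-NOT deadenylase to maternal mRNAs, had 51.8 and 671 TPM at 2-cell and 19.4 and 23.9 TPM at 4-cell. Tob1, another CCR4-NOT adaptor, had 57.4 and 51.0 TPM at 2-cell and 6.83 and 4.73 TPM at 4-cell (log2 change -3.04, SE 0.81, adjusted p = 0.191 by limma with weights, 0.0295 with 1 shared spread and 0.0407 after quantile normalization). The decapping enzyme gene Dcp2 had 81.0 and 35.6 TPM at 2-cell and 10.3 and 5.02 TPM at 4-cell. The storage factor genes Cpeb1 and Zar1 and the deadenylase gene Cnot6l were chosen after their values were seen. Cpeb1 had 58.7 and 20.2 TPM at 2-cell and 6.40 and 3.55 TPM at 4-cell. Zar1 had 30.6 and 20.8 TPM at 2-cell and 1.85 and 1.03 TPM at 4-cell. Cnot6l had 11.7 and 81.0 TPM at 2-cell and 7.03 and 9.39 TPM at 4-cell. Tob1, Dcp2, Cpeb1 and Zar1 were higher in the first 2-cell library than in the second, and Btg4 and Cnot6l were high in the second alone. Of the 38 genes in the list 15 were lower in both 4-cell libraries, 9 were higher in both and the median was -0.72. It was -0.18 without 2-cell replicate 2 and -0.47 without 4-cell replicate 2.

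The genes of the 2-cell burst were measured for 34 of the 47 names listed. In 11 of the 34 both 4-cell libraries were below both 2-cell libraries, in 4 both were above, and the other 19 overlapped. Summed, they held 361 and 2327 TPM in 2-cell embryos, against 451 and 562 TPM in 4-cell embryos. The first 2-cell library was thus at the level of the 4-cell libraries, and the second 6.44 times as high as the first. Zscan4c, a zinc finger factor of the burst, had 2.25 and 131 TPM at 2-cell and 2.39 and 2.12 TPM at 4-cell. Zscan4f had 4.77 and 167 TPM at 2-cell and 4.81 and 4.27 TPM at 4-cell. Both were high in the second 2-cell library alone. The log2 change of Zscan4c was -2.67 (SE 1.13, adjusted p = 0.331 by limma) with both libraries and 0 without 2-cell replicate 2. The median of the list was -1.13, with -2.71 without replicate 1 and 0.69 without replicate 2, so its direction rests on that library. B020031M17Rik had 33.6 and 135 TPM at 2-cell and 9.47 and 5.04 TPM at 4-cell. Gm16381, chosen after its values were seen, had 106 and 117 TPM at 2-cell and 21.6 and 25.3 TPM at 4-cell. These 2 were lower in both 4-cell libraries than in either 2-cell library. Kdm4dl, a histone demethylase relative that the study followed up, had 3.56 and 37.2 TPM at 2-cell and 8.96 and 9.95 TPM at 4-cell, with a change of -0.34 (SE 0.81, adjusted p = 0.88 by limma) that became 1.20 without 2-cell replicate 2. Several families of the list are near-identical copies, and their reads can be split among members.

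**Figure D3:**
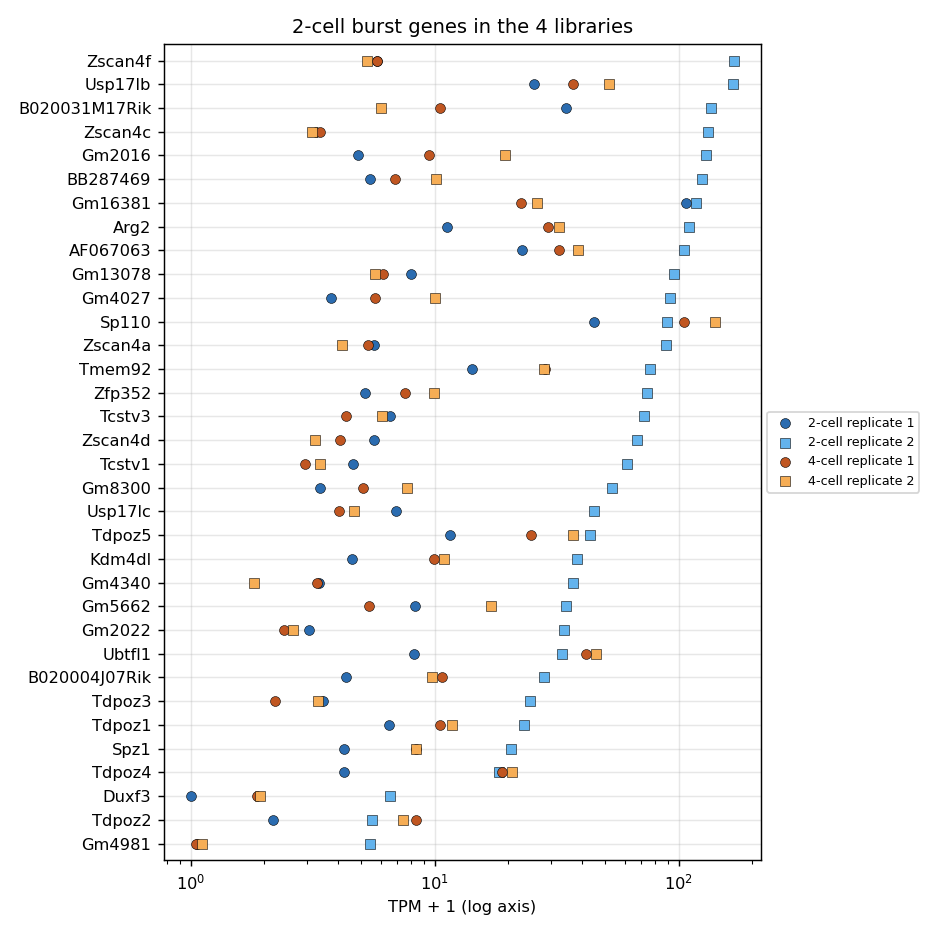
TPM + 1 (log axis) of the 34 measured 2-cell burst genes in the 2 2-cell libraries (blue) and the 2 4-cell libraries (orange), ordered by the second 2-cell library. In most genes 2-cell replicate 2 is the point farthest to the right, while 2-cell replicate 1 often lies at or below the 4-cell libraries, as in the sums of 361, 451 and 562 TPM against 2327.

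Of 47 regulators of pluripotency and the first lineages, 13 were higher in both 4-cell libraries and 11 lower in both. That is near the 27.2% and 23.3% of all genes tested. Their median was 0.06, or -0.06 after quantile normalization. With 1 library left out the median was -0.38 or 0.75 without 2-cell replicate 1 or 2, and -0.12 or 0.18 without 4-cell replicate 1 or 2. Besides Tdgf1, the orphan receptor gene Nr5a2, an activator of early embryonic genes, had 9.87 and 28.4 TPM at 2-cell and 161 and 178 TPM at 4-cell, with a log2 change of 3.25 (SE 0.99, adjusted p = 0.228 by limma with weights and 0.037 after quantile normalization). Tead4, the factor that opens the trophectoderm programme, had 6.55 and 6.28 TPM at 2-cell and 63.4 and 58.2 TPM at 4-cell. Gata6, a regulator of primitive endoderm, had 0.214 and 3.33 TPM at 2-cell and 18.1 and 14.8 TPM at 4-cell. These 3 and Tdgf1 were each called in both other fits. Sox15, a relative of Sox2, had 8.13 and 109 TPM at 2-cell and 452 and 560.0 TPM at 4-cell. Dppa2, an activator of early embryonic genes, had 43.5 and 73.8 TPM at 2-cell and 582 and 542 TPM at 4-cell. The best known pluripotency genes, chosen after their values were seen, did not share a direction. Nanog had 0.542 and 2.08 TPM at 2-cell and 9.22 and 11.2 TPM at 4-cell. Klf17 had 51.2 and 110.1 TPM at 2-cell and 263 and 247 TPM at 4-cell. Sox2 had 7.61 and 7.201 TPM at 2-cell and 0.236 and 0.357 TPM at 4-cell. Nanog and Klf17 were thus higher and Sox2 lower in both 4-cell libraries. Pou5f1, which encodes Oct4, overlapped between the stages with 17.3 and 33.2 TPM at 2-cell and 32.1 and 35.0 TPM at 4-cell. The abundant maternal and embryonic transcript Dppa3 had 1146 and 3398 TPM at 2-cell and 8192 and 9783 TPM at 4-cell. Dppa5a, an RNA-binding protein gene of pluripotent cells, had 213 and 760.3 TPM at 2-cell and 3132 and 2705 TPM at 4-cell.

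Cell-cycle regulators had 22 of 62 genes higher and 9 lower in both 4-cell libraries, with a median of 0.54 that moved with 1 library, with 0.06 without 2-cell replicate 1 and 0.90 without replicate 2. The replication licensing factor gene Cdc6 had 4.15 and 27.0 TPM at 2-cell and 93.8 and 92.9 TPM at 4-cell. Wee2, the oocyte kinase that holds Cdk1 inactive, had 18.1 and 179 TPM at 2-cell and 6.03 and 4.65 TPM at 4-cell. E2f5, a transcription factor of the E2F family, had 646 and 220.5 TPM at 2-cell and 41.5 and 25.4 TPM at 4-cell. The mitotic regulator genes Ccnb1, Aurka and Cdk1 were chosen after their values were seen. Ccnb1 had 101 and 389.9 TPM at 2-cell and 1441 and 1193 TPM at 4-cell. Aurka had 49.7 and 55.4 TPM at 2-cell and 312 and 291 TPM at 4-cell. Cdk1 had 83.6 and 229.7 TPM at 2-cell and 499 and 443 TPM at 4-cell. These 3 were higher in both 4-cell libraries.

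Among 66 chromatin and DNA methylation factors, 19 were higher in both 4-cell libraries and 16 lower in both, near the 27.2% and 23.3% of all genes tested. Their median was 0.25. Its sign turned with 1 library, with -0.14 without 2-cell replicate 1 and 0.42 without replicate 2. The histone deacetylase gene Hdac1 had 27.8 and 52.3 TPM at 2-cell and 288 and 235 TPM at 4-cell. Kdm4c, a histone H3K9 demethylase, had 3.18 and 7.73 TPM at 2-cell and 32.0 and 29.6 TPM at 4-cell. Both were higher in the 4-cell libraries, and the next 2 lower. Suv39h2, a histone H3K9 methyltransferase, had 152 and 29.3 TPM at 2-cell and 9.08 and 7.41 TPM at 4-cell. Brdt, a bromodomain protein of the germ line, had 507 and 361 TPM at 2-cell and 87.8 and 65.7 TPM at 4-cell. Tet3, the 5-methylcytosine dioxygenase of the zygote, and Smarca4, the ATPase Brg1, were chosen after their values were seen. Tet3 had 8.84 and 116 TPM at 2-cell and 4.89 and 5.39 TPM at 4-cell. Smarca4 had 38.4 and 50.1 TPM at 2-cell and 183 and 176 TPM at 4-cell.

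**Figure D4:**
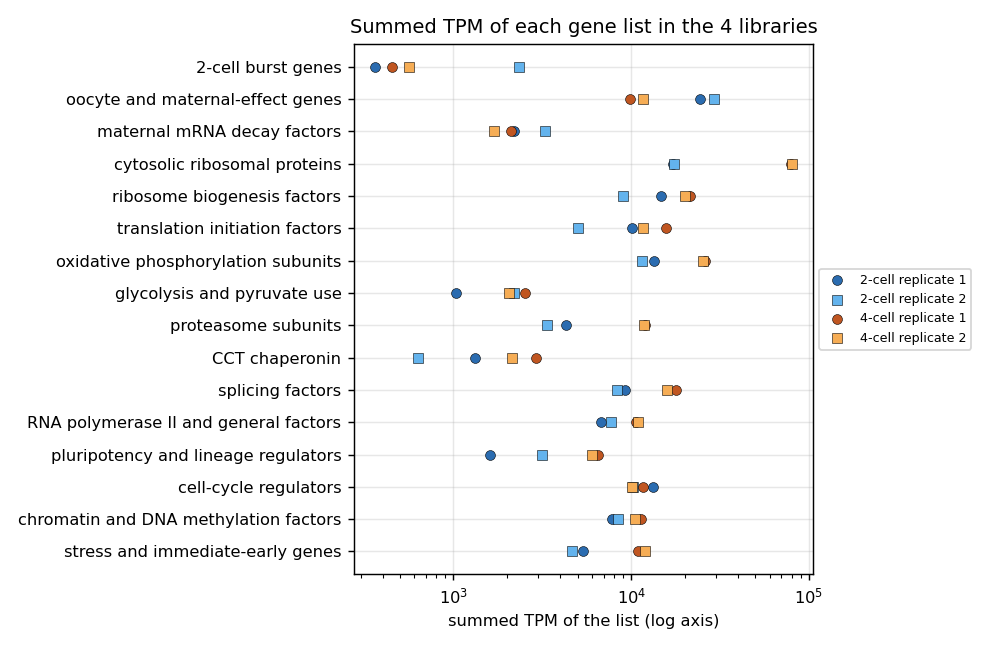
Summed TPM (log axis) of the genes of each functional list in the 2 2-cell libraries (blue) and the 2 4-cell libraries (orange). Ribosomal proteins, oxidative phosphorylation and the proteasome are close in both 2-cell libraries and higher in both 4-cell libraries, while the 2-cell burst genes differ between the 2-cell libraries, at 361 and 2327 TPM.

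Few markers of cells that could accompany flushed embryos were tested. All cumulus and oviduct markers that were not tested lacked a merged transcript, so their level could not be measured here. Of 19 cumulus and granulosa markers 2 were tested. Amhr2 had 44.9 and 49.9 TPM at 2-cell and 99.2 and 107 TPM at 4-cell. Col4a1 had 0.148 and 1.37 TPM at 2-cell and 0.482 and 0.589 TPM at 4-cell. The defining Cyp19a1, Fshr and Lhcgr had no merged transcript. Oviduct markers tested were 3 of 10, with sums of 767 and 155 TPM at the 2-cell stage and 87.3 and 66.9 TPM at the 4-cell stage. Most of that was Epcam, an epithelial adhesion gene that embryos express too, with 748 and 126 TPM at 2-cell and 83.2 and 62.6 TPM at 4-cell. Ovgp1, the oviduct glycoprotein, had 2.45 and 1.41 TPM at 2-cell and 1.20 and 2.36 TPM at 4-cell. Elf3 had 17.1 and 27.5 TPM at 2-cell and 2.94 and 1.99 TPM at 4-cell. Sperm markers tested were 8 of 15. All 15 had merged transcripts, with sums of 155 and 69.3 TPM at 2-cell and 22.7 and 28.5 TPM at 4-cell. These were led by Tssk6 with 137 and 3.92 TPM at 2-cell and 1.10 and 1.13 TPM at 4-cell. Odf2 had 13.5 and 33.4 TPM at 2-cell and 6.95 and 10.0 TPM at 4-cell. Gapdhs had 0.0969 and 0.744 TPM at 2-cell and 1.55 and 1.31 TPM at 4-cell. The protamine genes Prm1 and Prm2 reached at most 4.37 and 2.17 TPM, both in 2-cell replicate 2. Blood markers tested were 5 of 12. The 11 with merged transcripts had sums of 24.7 and 383 TPM at 2-cell and 111 and 153 TPM at 4-cell. The globin gene Hba-a1 made up most of it with 18.6 and 368 TPM at 2-cell and 95.5 and 145 TPM at 4-cell. Hbb-bs had 1.64 and 1.65 TPM at 2-cell and 0 and 0 TPM at 4-cell. Lyz2 had 2.28 and 6.90 TPM at 2-cell and 6.87 and 0.666 TPM at 4-cell. Cd68 had 0.172 and 3.47 TPM at 2-cell and 6.37 and 6.16 TPM at 4-cell. The defining T cell gene Cd3e was listed at 0 in all 4 libraries. Epcam and Tssk6 were highest in 2-cell replicate 1 and Hba-a1 in 2-cell replicate 2, and the part of such RNA in the differences between the stages was not tested.

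At the level of transcripts, 20250 of the 22612 merged transcripts were tested. Limma with weights called none higher and 1 lower at the 4-cell stage (0.00494%), with 2647 (13.1%) at an unadjusted p under 0.05. With 1 shared spread 296 were called higher (1.46%) and 236 lower (1.17%), and after quantile normalization 184 higher (0.909%) and 120 lower (0.593%). Both 4-cell libraries were above both 2-cell libraries in 27.9% of transcripts and below in 21.9%. Annotated transcripts, with the structure of an annotated one or contained in it, were higher in both 4-cell libraries in 32.4% of 10384. They were lower in both in 20.2%, with a median log2 change of 0.16. New isoforms of annotated genes had 27.9% higher and 20.6% lower of 5166, with a median of 0.00. Transcripts of new genes, which lie outside annotated genes, had 15.1% higher and 28.2% lower of 1970, with a median of -0.22. New genes took 14.5% and 17.7% of the TPM of the 2-cell libraries and 5.68% and 9.36% of the 4-cell libraries. Annotated transcripts took 58.7% and 46.5% at the 2-cell stage and 67.9% and 61.9% at the 4-cell stage.

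The called transcript was TCONS_00008763, a new isoform of Mea1 with 3 exons and 704 bases at chr17:46681837-46683256 on the plus strand. The 2-cell libraries held 18.6 and 26.9 TPM of it and the 4-cell libraries 0 and 6e-06 TPM, with a log2 change of -4.55 (SE 0.55, adjusted p = 0.0317 by limma). Mea1 as a gene, summed over 4 transcripts, overlapped between the stages at 47.5 and 149.9 TPM at 2-cell and 81.7 and 115 TPM at 4-cell. The isoform was in neither the 2-cell nor the 4-cell long-read pool. Over 11 alternatives its adjusted p by limma ran from 0.00144 to 0.477, with 5 under 0.05.

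The new transcripts with the largest differences among those called in both other fits were chosen after their values were seen. A new isoform of Ctsa, the lysosomal protective protein cathepsin A, had 16 exons and 2104 bases (TCONS_00011596, chr2:164832909-164839582, plus strand) and 0.276 and 3.98 TPM at 2-cell and 178 and 133 TPM at 4-cell, and was in the 4-cell pool and not in the 2-cell pool. A new isoform of Rps3 (TCONS_00019067) had 0 and 2.94 TPM at 2-cell and 75.5 and 158 TPM at 4-cell. A new isoform of Tardbp (TCONS_00015020), which encodes the RNA-binding protein TDP-43, had 3.30 and 1.22 TPM at 2-cell and 97.4 and 68.0 TPM at 4-cell. A new isoform of Gm13102 (TCONS_00014235) had 0.450 and 1.18 TPM at 2-cell and 39.3 and 51.5 TPM at 4-cell. The new single-exon gene XLOC_009787, of 2552 bases at chr4:55313847-55316398 on the plus strand (TCONS_00013797), had 0.142 and 0.427 TPM at 2-cell and 40.6 and 30.3 TPM at 4-cell and was in the 4-cell pool and not in the 2-cell pool. In all 5 both 4-cell libraries were far above both 2-cell libraries. The isoforms of Rps3, Tardbp and Gm13102 were in neither the 2-cell nor the 4-cell long-read pool. On the lower side besides XLOC_000849, a new isoform of Ninj1 with 4 exons (TCONS_00005260) had 48.6 and 55.7 TPM at 2-cell and 0 and 1.29 TPM at 4-cell. The other 3 were single-exon loci of 108, 244 and 414 bases, and like the isoform of Ninj1 they were in neither pool. XLOC_011754 (TCONS_00016580) had 87.7 and 234 TPM at 2-cell and 0.454 and 0.0000130 TPM at 4-cell. XLOC_011892 (TCONS_00016767) had 141 and 62.9 TPM at 2-cell and 0 and 3.58 TPM at 4-cell. XLOC_010870 (TCONS_00015353) had 1162 and 357 TPM at 2-cell and 13.3 and 29.5 TPM at 4-cell. The short-read kit is not stated to keep strand, so reads of such a locus and of a gene on the opposite strand cannot be told apart.

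Of the new transcripts that the study followed up, the isoform of Sgk3, a serum-regulated kinase (TCONS_00000026), had 5.80 and 12.7 TPM at 2-cell and 59.6 and 41.3 TPM at 4-cell, a log2 change of 2.39 (SE 0.83, adjusted p = 0.282 by limma). The 2-exon transcript upstream of Tlk2 (TCONS_00003168) had 10.1 and 37.3 TPM at 2-cell and 53.7 and 65.9 TPM at 4-cell, a change of 1.55 (SE 0.93, adjusted p = 0.486 by limma). The locus XLOC_004958 had 291 and 167 TPM at 2-cell and 74.0 and 73.7 TPM at 4-cell, a change of -1.56 (SE 0.81, adjusted p = 0.412 by limma). The first 2 were higher and the last lower in both 4-cell libraries, and none passed the test.

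Isoform use was compared as the share of an isoform in its gene's TPM, for 10235 isoforms of 3765 genes with at least 1 TPM in each of the 4 libraries. No share was called by limma with a difference of over 10 percentage points, with weights, with 1 shared spread or after quantile normalization, and the lowest adjusted p values of these fits were 0.143, 0.0513 and 0.160. At an unadjusted p under 0.05 the 3 fits had 1240 (12.1%), 1770 (17.3%) and 1124 (11%) isoforms. Without a test, the shares of 4339 isoforms (42.4%) did not overlap between the stages, and 2535 (24.8%) in 1376 genes did so with a difference of over 10 points. Of 5428 annotated isoforms 867 (16.0%) were higher and 600 (11.1%) lower by over 10 points, and of 4068 new isoforms 336 (8.26%) were higher and 533 (13.1%) lower.

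The 8 isoforms with the largest higher share among genes of at least 20 TPM in every library were chosen after their values were seen and are given as values. The gene of Rpl12, a ribosomal protein of the large-subunit stalk, had 3 isoforms. The share of 1 annotated isoform stood at 17.7% and 40.5% at 2-cell and 86.2% and 91.7% at 4-cell (TCONS_00010989), while the other annotated isoform (TCONS_00010991) had 54.2% and 29.3% at 2-cell and 7.57% and 4.84% at 4-cell. The third isoform, a new one (TCONS_00010990) that starts at the same position as the first, had 28.2% and 30.2% at 2-cell and 6.28% and 3.44% at 4-cell. The long reads did not follow these shares, since the first isoform was in the 2-cell pool alone and the other 2 in neither pool. Rybp, a Polycomb subunit, was divided mainly between a single-exon isoform of 2339 bases (TCONS_00017544), with 0.594% and 8.97% at 2-cell and 55.3% and 66.9% at 4-cell, and the 5-exon isoform (TCONS_00017545), with 99.1% and 84.4% at 2-cell and 37.9% and 30.3% at 4-cell. The 5-exon isoform was in the 2-cell pool alone and the single-exon isoform in the 4-cell pool alone. The short isoform covers chr6:100228566-100230904 and the other chr6:100231663-100287514, so the 2 share no exon.

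Of the others, the isoform of Atp5h, an ATP synthase subunit (TCONS_00004071), had 29.5% and 24.1% at 2-cell and 81.7% and 81.7% at 4-cell. That of Hspa4, a co-chaperone of Hsp70 (TCONS_00003495), had 34.3% and 21.3% at 2-cell and 90.5% and 78.0% at 4-cell, and was in the 4-cell pool alone. A 12-exon isoform of Nup205, a nuclear pore gene (TCONS_00016660), had 3.29% and 13.3% at 2-cell and 61.0% and 64.7% at 4-cell and was in the 4-cell pool alone. It covers chr6:35232543-35247590, and the new isoform with the rest of the share (TCONS_00016659) covers chr6:35177360-35184067. These do not overlap, so the shares compare separate stretches of the gene. The isoform of Atp5h was in both pools. For the isoforms of Atp5h and Hspa4 and the 12-exon isoform of Nup205, the 4-cell shares were above both 2-cell shares. Among new isoforms, that of Akap7, a kinase anchor (TCONS_00002046), had 7.21% and 13.2% at 2-cell and 77.1% and 58.3% at 4-cell. That of Ube2e3, a ubiquitin-conjugating enzyme (TCONS_00011130), had 16.7% and 50.3% at 2-cell and 87.1% and 90.1% at 4-cell. That of Rnf122, a ubiquitin ligase (TCONS_00019509), had 8.95% and 43.3% at 2-cell and 74.4% and 80.1% at 4-cell. Of these 3, the Akap7 isoform was in neither pool, that of Ube2e3 in both and that of Rnf122 in the 4-cell pool alone. The new isoform of Rnf122 starts at position 31118271 of chr8 and the annotated one, with the rest of the share, at 31111830.

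**Figure D5:**
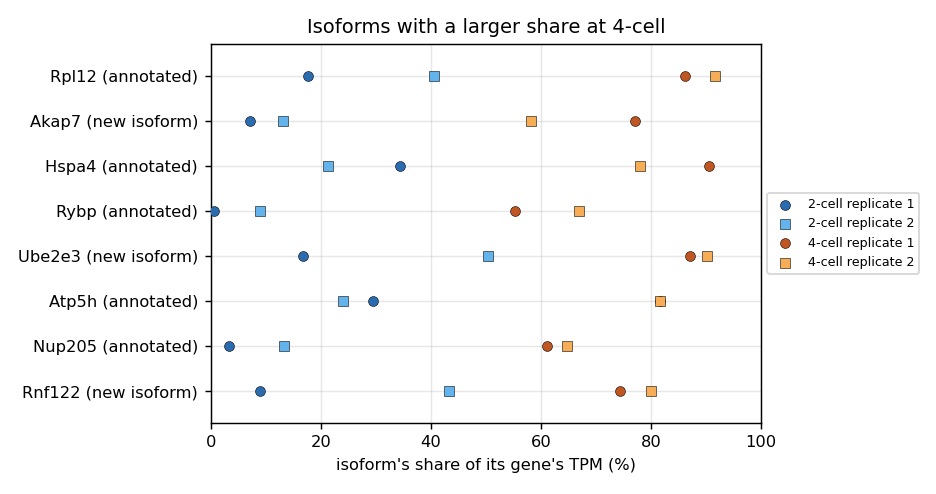
Share (%) of 1 isoform in its gene's TPM, for the 8 genes with the largest higher share at the 4-cell stage among genes of at least 20 TPM, with 1 point for each of the 2 2-cell libraries (blue) and the 2 4-cell libraries (orange). In all 8 the 4-cell libraries lie to the right of both 2-cell libraries, as for Atp5h with 29.5% and 24.1% at 2-cell and 81.7% and 81.7% at 4-cell, though none of these shares passed the test.

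The long-read pools, with 1 pool a stage and so no replicates, held 8019 transcripts of 4802 genes at the 2-cell stage and 8257 transcripts of 4666 genes at the 4-cell stage. They shared 3186 genes, which is 66.3% of the 2-cell genes and 68.3% of the 4-cell genes. Of the 2-cell transcripts 45.9% (Wilson 95% interval 44.8 to 47) had no match in the 4-cell pool, and of the 4-cell transcripts 43.4% (42.3 to 44.4) had none in the 2-cell pool, where a match was the same or a contained intron chain. These intervals cover counting error only. The share without a match was 33.5% for annotated transcripts, 65.1% for new isoforms and 75% for new genes of the 2-cell pool, and 33.9%, 61.7% and 66.8% in the 4-cell pool. Median length was 1337 and 1371 bases, single-exon transcripts were 21.1% and 16.7% of the pools, and new genes 6.83% and 4.55%.

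Short reads and long reads went the same way for transcripts found in 1 pool alone, though both come from the same cDNA. Merged transcripts matched by the 2-cell pool alone had a median log2 change of -0.79 in the short reads (3093 tested, 10.6% higher and 38.8% lower in both 4-cell libraries). Those matched by the 4-cell pool alone had 1.04 (3028 tested, 53.0% higher and 7.56% lower). Those in both pools had 0.77, and those in neither -0.21. Over all genes, 1616 were in the 2-cell pool alone and 1480 in the 4-cell pool alone. By list, 27 of the 34 burst genes had a transcript in the 2-cell pool and 12 in the 4-cell pool. The 2-cell pool alone had 17, among them Zscan4c, Zscan4f, Gm16381 and Kdm4dl, and the 4-cell pool alone had Ubtfl1 and Tdpoz5. The 2-cell pool mixes both batches, so the batch its burst transcripts came from cannot be told. Oocyte and maternal-effect genes had 37 of 68 in the 2-cell pool and 19 in the 4-cell pool, with Bmp15, Bcl2l10, Wee2 and all 5 Tcl1b genes named above in the 2-cell pool alone. Here a gene was counted by any pool transcript assigned to it, also where no merged transcript of it matched, as for Tcl1b5. Oxidative phosphorylation subunits had 56 of 77 in the 2-cell pool and 67 of 77 in the 4-cell pool. Of these genes 14 were in the 4-cell pool alone, among them Ndufa3 and Ndufs5. Splicing factors had 52 and 59 of 67, with Srsf3 in the 4-cell pool alone and Ptbp2 in the 2-cell pool alone. Tdgf1 and Tead4 were in the 4-cell pool alone. Ribosomal proteins, at 77 and 80 of 82, were in both pools almost throughout.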

How the data were processed

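The authors ran Salmon on each short-read library and deposited its TPM values over the merged transcripts, and the long-read transcripts of each stage were deposited by the authors as exon coordinates on mm10. The labels list GSNAP, STAR, Cufflinks and Salmon, and the methods add GMAP, cDNA_Cupcake and Cuffmerge. TPM was summed over the transcripts whose exons overlap a GENCODE vM21 gene most on the same strand, and 954 transcripts overlapped more than 1 gene. Samples were grouped by stage and replicate as titled.

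Features reaching 1 TPM in at least 2 of 12 libraries (6 stages from oocyte to blastocyst) were tested with limma 3.58.1 in R 4.3.3 on log2(TPM + 1), which understates the change of low genes. Stage was the only term, arrayWeights gave 1 weight a stage (0.251 at 2-cell and 4.29 at 4-cell for genes), and p-values were adjusted by Benjamini-Hochberg with a threshold of 0.05. Isoform shares were tested the same way on log2((isoform + 1)/(other transcripts + 1)), and a call needed a difference of over 10 points. Pool transcripts matched by the same or a contained intron chain on 1 strand, and single-exon ones by containment or 80% reciprocal overlap. Python 3.11.15, NumPy 2.4.6, pandas 2.3.3 and SciPy 1.17.1 were used.

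The genes, lists and tests were chosen with earlier results of these data known. The rule named up to 12 called genes and 5 called new transcripts in each direction, 8 called isoform shares, up to 3 genes of each list with the largest changes, the markers with the highest TPM and the genes the study names. Because 2 genes were called, the rest of these places went to genes called by both alternative fits, after their values were seen.

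The fits with weights and with 1 shared spread were tested on simulated data with 200 changed features. Of 200 features changed by 2 on the log2 scale both recovered 0, for genes, transcripts and isoform shares alike. Of 200 changed by 4, the fit with weights recovered 90 genes, 45 transcripts and 78 isoform shares. Of 200 changed by 6 it recovered 182, 165 and 163. A lack of calls therefore does not show a lack of change. The share of false calls stayed near the threshold with weights and was well above it with 1 shared spread, on which many of the named genes rest. The fit after quantile normalization, which also used weights by stage, was not simulated. The alternatives tried were no weights, quantile normalization, a pseudocount of 0.1, no filter or a filter of 5 TPM, the 4 libraries alone, a replicate block, merged loci as genes, stricter matching of pools and leaving out 1 library at a time. The read totals that the study gives were not used here.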

Additional observations from a re-analysis of the deposited data

How the results depend on the processing

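The number of features called by limma moved most with how the spread was modelled and with the scaling. Genes called were 2 as reported and 356 with 1 spread shared by all stages, 285 after quantile normalization, 19 with a pseudocount of 0.1, 0 with no filter on low values (1872 at an unadjusted p under 0.05), 0 with the 4 libraries alone (1369) and 0 to 8 with 1 library left out. Without either 2-cell library 0 were called (1198 and 1112 at an unadjusted p under 0.05), without 4-cell replicate 1 there were 4 and without replicate 2 there were 8. Transcripts called were 1 as reported and 532, 304, 0 with a pseudocount of 0.1, 0 at a filter of 5 TPM, 0 with the 4 libraries alone and 0 to 7 with 1 library left out. Members of lists called were 0 as reported, 23 with 1 shared spread, 29 after quantile normalization and 1 with a pseudocount of 0.1. Isoform shares called stayed at 0 in every alternative run. Of the pools, 39% and 38.7% had no match among multi-exon transcripts and 56.4% and 55% with the same intron chain only.

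Whether libraries with the same replicate number belong together across stages is not known. Deviations of same-numbered libraries had an r of 0.284 between 2-cell and 4-cell and of -0.494 to 0.442 over all pairs of stages. These values were not tested, so they do not show whether the stages are paired. For the stage just before the blastocyst, the deposited names number the replicates in opposite ways. The sample title was followed there, and the values of pairs with that stage depend on this choice. With a replicate block, limma called 1 gene (lower) and 0 transcripts, and 0 isoform shares and 0 list members.

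Signs turned for a few low or uneven genes. Leaving out 2-cell replicate 1 or 2 gave log2 changes of -5.34 or 0 for Zscan4c, -0.63 or 0.42 for Col4a1, -1.64 or 2.6 for Hba-a1, 1.07 or -1.38 for Rps10 and -1.87 or 1.20 for Kdm4dl. With 1 library left out, Ovgp1 ran from -0.39 to 0.22 and Lyz2 from -1.61 to 0.63, the values above 0 being 0.17 and 0.22 for Ovgp1 and 0.14 and 0.63 for Lyz2. Col4a1 had 0.07 with a pseudocount of 0.1 and 0.08 after quantile normalization. With 1 library left out, the lone library of its stage was assumed to vary like its stage. No limit of detection is given for features listed at 0, since the deposited TPM values hold no counts.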
